A study of Mus musculus with 26 samples.

Results

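The Dlk1-Meg3 locus is an imprinted gene cluster on mouse chromosome 12. It was followed here through 6 genes chosen by name, Dlk1, Meg3, Rtl1, Rian, Mirg and Dio3, out of 49209 annotated genes placed on chromosomes 1 to 19 and X. The genes were listed by name and not picked by a threshold on a measured value, and to them were added the 2 chromatin domains that hold them and the 3 domain boundaries that bound those domains. The series used Micro-C, which cuts crosslinked chromatin with micrococcal nuclease and joins the ends of fragments that lay close together, so that the sequenced joins report which stretches of DNA were in contact. Its 26 libraries came from mouse RAD21-dTAG cells, a line derived from Bruce-4 embryonic stem cells with the labelled genotype C57BL/6J. In these cells RAD21, a subunit of the cohesin ring, carries a degradation tag, and the DMSO controls carry that tag too. Embryonic stem cells (ESCs) in G1 were given 500 nM dTAG, the ligand that triggers degradation, 20 µM A485, an inhibitor of the p300 and CBP acetyltransferases, or 0.05% DMSO by volume (6 libraries each), and epiblast-like cells (EpiLCs) were given dTAG or DMSO (4 libraries each).

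The values below come from 1 list of 3515 boundaries that the authors called on the pooled 6 libraries of DMSO-treated ESCs, grown in medium with serum, LIF and 2 kinase inhibitors ("2i"). The other 4 groups were not analysed here, so no effect of cohesin loss or of A485 on the locus is given. Every boundary is an interval of 25 kb on mm10 without a score. The pooled list has no spread between libraries, its contact depth is unknown, and no difference below was tested against replicate error. The paternal and maternal chromosomes were not separated. RNA was not measured in the list, so the ESC label could not be set against marker genes.

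A topologically associating domain (TAD) is a stretch of chromatin whose DNA contacts itself more than its surroundings, and boundaries are the places where one such stretch gives way to the next. In mammals many boundaries form where CTCF, a DNA-binding protein, stops cohesin from extruding a loop any further. An imprinted gene is expressed from the chromosome of 1 parent. In the Dlk1-Meg3 cluster Dlk1, Rtl1 and Dio3 are expressed mainly from the paternal chromosome, and Meg3, Rian and Mirg are non-coding RNAs of the maternal one. The choice between them is set by a methylation mark between Dlk1 and Meg3, the intergenic differentially methylated region, and loss of expression of the maternal RNAs is a known defect of some pluripotent stem cell lines.

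Dlk1, Meg3, Rtl1, Rian and Mirg lay together in 1 domain of 575 kb, and Dio3 lay apart from them in the next domain, of 375 kb. The boundary between these domains is chr12:109975001-110000000, to the right of Mirg and to the left of Dio3. The 5-gene domain ran over chr12:109400001-109975000 and the Dio3 domain over chr12:110000001-110375000. The outer boundaries were chr12:109375001-109400000 on the Dlk1 side and chr12:110375001-110400000 on the far side of Dio3. Neither domain was of unusual length, since 56.7% of the 3495 domains were shorter than the 5-gene domain and 32.8% were shorter than the Dio3 domain. The median was 500 kb over all domains and 512.5 kb over the 138 domains of chromosome 12.

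**Figure D1:**
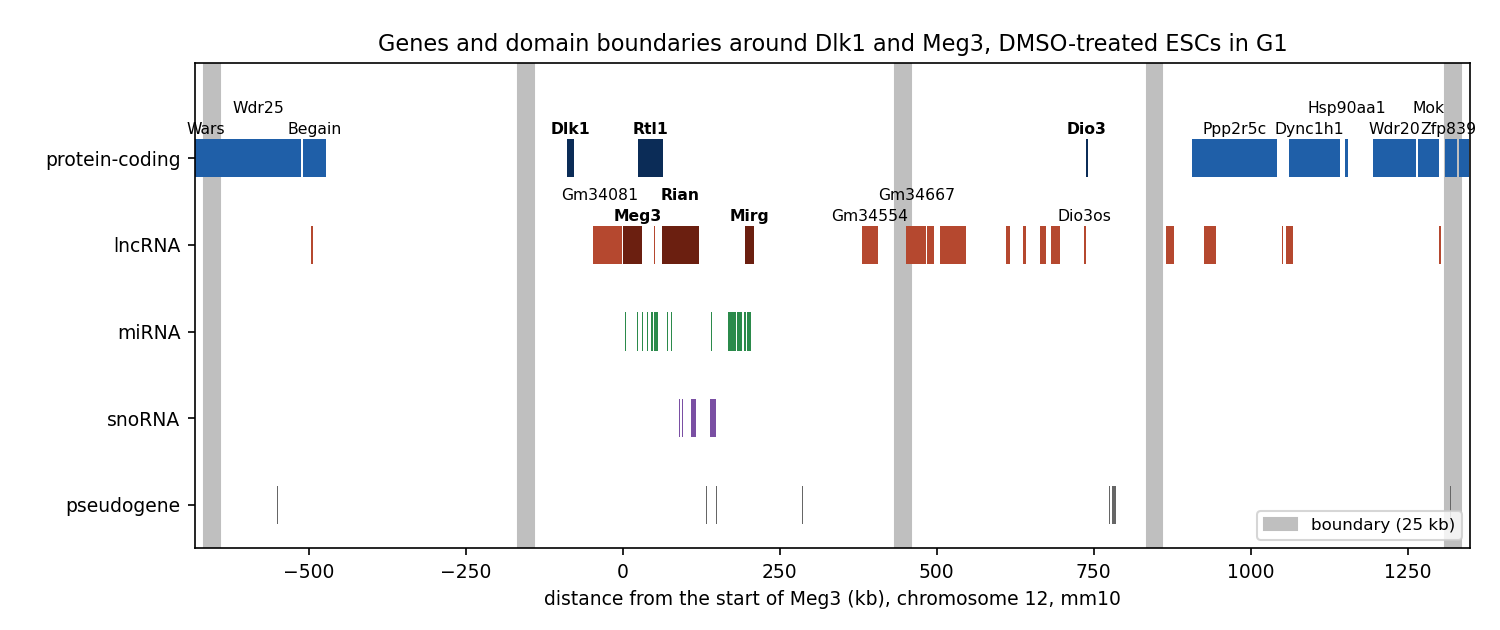
Genes of each annotated class (rows) and the boundaries called in DMSO-treated ESCs in G1 (grey bands), by distance from the start of Meg3 in kb on chromosome 12; the 6 genes of the locus are in darker colours and bold. Dlk1 to Mirg and the dense miRNA and snoRNA genes stand between the second and the third band from the left, and Dio3 stands between the third and the fourth.

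The genes filled the 5-gene domain unevenly. From the start of Dlk1 to the end of Mirg the stretch, gaps between genes included, was 297.0 kb, or 51.6% of the domain's length. It began 52.5 kb inside the left boundary of the domain. Dlk1 and Meg3, the interval that holds the methylation mark named above, were 77.7 kb apart. Rtl1 overlapped the annotated ends of Meg3 by 6.83 kb and of Rian by 0.474 kb, and 73.3 kb separated Rian from Mirg. The last 225.5 kb of the domain, 39.2% of it, followed Mirg and held no other protein-coding, miRNA or snoRNA gene. From the end of Mirg to the start of Dio3 the distance was 529.8 kb, and the whole locus from Dlk1 to Dio3 spanned 828.6 kb.

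None of the 6 genes had an end inside a boundary or within 10 kb of one, the distance at which a gene is called near a boundary here. Of all 21521 protein-coding genes, 18.3% were near a boundary, and of all 12607 long non-coding RNA (lncRNA) genes, 10.3% were. With shares this low, 0 of 6 is not a result about the members. The 6 distances, from the end of the gene that was nearest to a boundary, had a median of 152.9 kb, against 98.9 kb over all protein-coding genes and 129.4 kb over all lncRNA genes.

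Dlk1 (gene 13386, chr12:109452485-109463336) encodes a transmembrane protein of the Delta-like family that restrains adipocyte differentiation. Of the 6 genes it was nearest to a boundary, at 52.5 kb on its left, and 511.7 kb separated it from the boundary on its right. Of all protein-coding genes, 36.5% were closer to a boundary than Dlk1.

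Dio3 (gene 107585, chr12:110279230-110281097) encodes the deiodinase that inactivates thyroid hormone. It was 93.9 kb from the boundary on its right and 279.2 kb from the boundary that separates it from Mirg. Among protein-coding genes 48.7% were closer to a boundary, so Dio3 stood near the middle of its class.

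Rtl1 (gene 353326, chr12:109564900-109604418) was derived from the gag and pol genes of a retrotransposon and is needed in the placenta. It was 164.9 kb from the left boundary and 370.6 kb from the right one. With 64.7% of protein-coding genes closer to a boundary, it lay deeper in its domain than Dlk1 and Dio3 did in theirs.

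Meg3 (gene 17263, chr12:109540996-109571729), the first of the maternal lncRNAs, was 141.0 kb from the left boundary, and 53.1% of lncRNA genes were closer to one. Rian (gene 75745, chr12:109603945-109661716), the host of a snoRNA cluster, was 203.9 kb from the left boundary, with 66.6% of lncRNA genes closer. Mirg (gene 100040724, chr12:109734981-109749458), a host of miRNAs, was 225.5 kb from the boundary on its right, with 70.0% of lncRNA genes closer. Meg3 thus stood near the middle of its class, and Rian and Mirg were farther from a boundary than most lncRNA genes.

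The order from near to far was Dlk1, Dio3, Meg3, Rtl1, Rian, Mirg. Meg3, Rtl1 and Rian were measured to the same left boundary, so their order is that of the genes along the chromosome, with steps of 23.9 kb from Meg3 to Rtl1 and 39.0 kb from Rtl1 to Rian. Rian and Mirg were measured to different boundaries, and their step of 21.6 kb was less than the 25 kb width of a boundary, so these neighbours cannot be ordered by this list. The other steps were 41.4 kb from Dlk1 to Dio3 and 47.1 kb from Dio3 to Meg3.

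**Figure D2:**
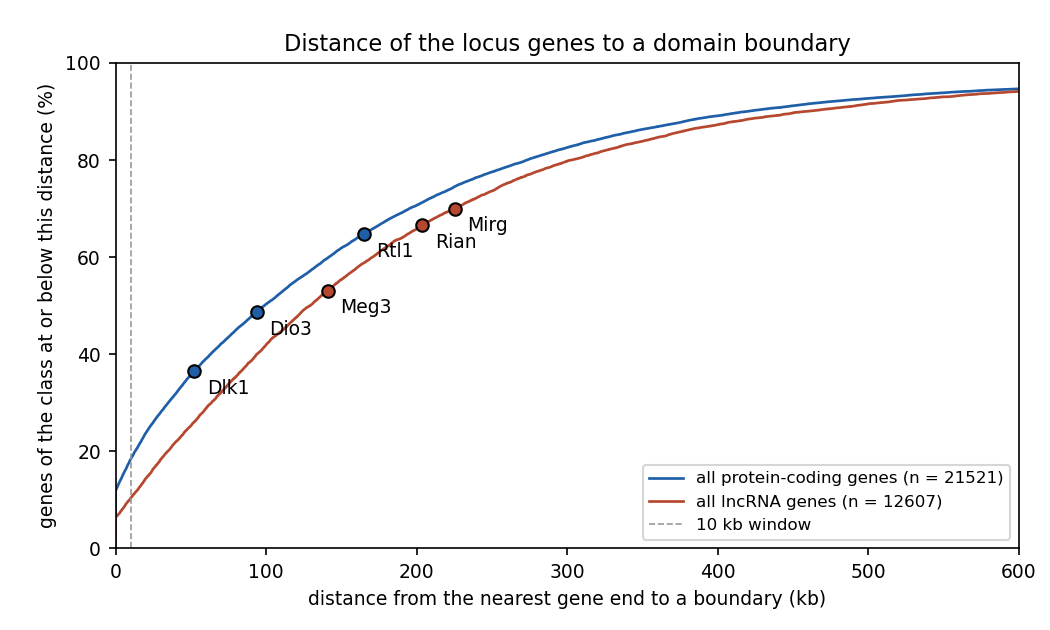
Cumulative share of all protein-coding and all lncRNA genes (y axis, %) by distance from the nearest gene end to a boundary (x axis, kb), with each gene of the locus placed on the curve of its class. All 6 points stand to the right of the dashed 10 kb line, from Dlk1 at 52.5 kb to Mirg at 225.5 kb.

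The 3 boundaries around the locus lay far from the ends of protein-coding genes. None of the 3 had a protein-coding gene ending or starting within 10 kb, whereas 64.3% of all 3515 boundaries did, and the median boundary was 0.348 kb from such an end. The boundary left of Dlk1 overlapped no annotated gene at all, and Dlk1 was its nearest protein-coding gene. Of all boundaries, 84.3% were closer to an end of a protein-coding gene than that one.

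The boundary between Mirg and Dio3 overlapped the end of a single gene, the lncRNA Gm34667. Its nearest protein-coding gene was Dio3, 279.2 kb away. Of all boundaries 96.4% were closer to an end of a protein-coding gene, and 127 were farther from one.

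The boundary on the far side of Dio3 overlapped no gene either. The lncRNA Gm40577 was 5.60 kb from it, and Ppp2r5c, which encodes a regulatory subunit of protein phosphatase 2A, was 47.1 kb from it. Of all boundaries, 83.2% were closer to an end of a protein-coding gene. Of the 3 boundaries 2 overlapped no annotated gene, against 17.0% of all boundaries.

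The boundaries one step farther out lay among protein-coding genes. To the left, chr12:108875001-108900000 held parts of Wars, a tryptophanyl-tRNA synthetase gene, and of Wdr25. To the right, chr12:110850001-110875000 held Zfp839, a zinc finger gene, whole and 1 end of Cinp. The boundaries without a nearby protein-coding end were therefore the inner 3 of these 5.

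Whether the genes of the locus share a domain was set against all pairs of protein-coding genes with the same distance between their midpoints, within 10%. Of the 15 pairs among the 6 genes, 10 shared a domain, and the 5 that did not were the pairs with Dio3. Dlk1 and Mirg, 284.3 kb apart by midpoint, were the farthest pair in 1 domain, and 50.5% of protein-coding pairs that far apart shared a domain. Mirg and Dio3, 537.9 kb apart, were in separate domains, and 27.8% of protein-coding pairs at that distance shared one. Dlk1 and Dio3, 822.3 kb apart, were separate too, with 14.9% of protein-coding pairs at that distance in 1 domain.

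Each pair thus fell on the side that was the more frequent for its distance, although for Dlk1 and Mirg, at 50.5%, the sides were nearly even. The pairs overlap in their genes, and 1 boundary separates all 5 pairs with Dio3, so the 15 are not independent. For the closest pair, Meg3 and Rtl1 at 28.3 kb, 82.6% of protein-coding pairs shared a domain. For Dlk1 and Meg3, 98.5 kb apart by midpoint, the share was 75.5%.

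**Figure D3:**
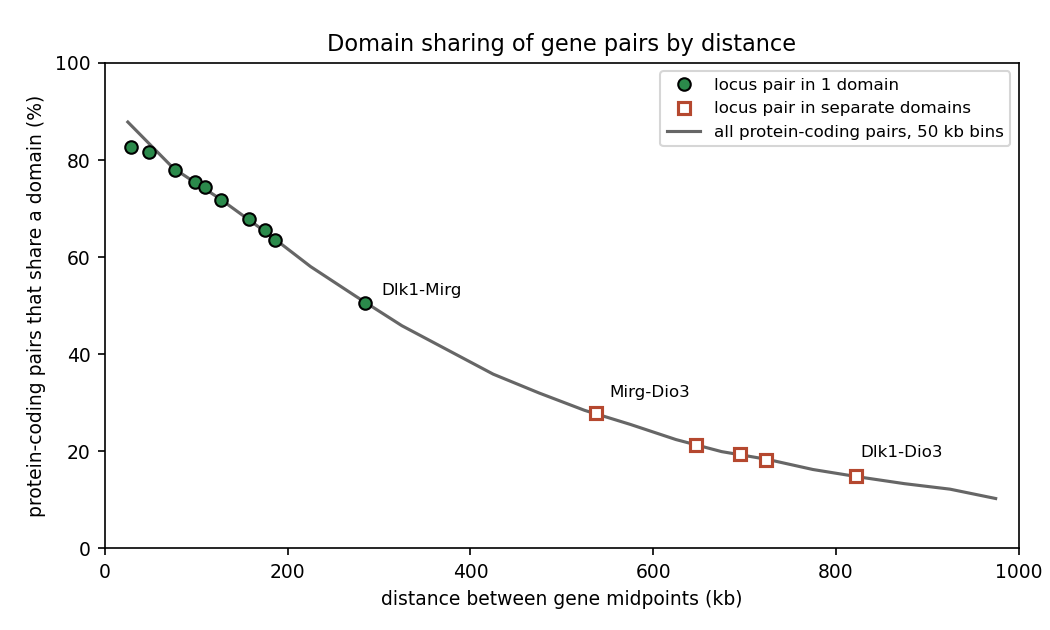
Share of protein-coding gene pairs in 1 domain (y axis, %) by the distance between their midpoints (x axis, kb), as a line over bins of 50 kb, with the 15 pairs of the locus placed at their own distance and at the share of protein-coding pairs within 10% of it. Filled circles are the 10 pairs of the locus that shared a domain, up to 284.3 kb, and open squares are the 5 pairs that did not, from 537.9 kb.

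The 5-gene domain held many small RNA genes, while its count of protein-coding genes was not unusual. It held 2 protein-coding genes, Dlk1 and Rtl1, where the median domain held 3, and 44.8% of all domains held 2 or fewer. It held 60 miRNA genes and 19 snoRNA genes among 92 annotated genes, where the median domain held 9 genes of any kind. Of all domains, 81.3% had no miRNA gene and 79.3% had no snoRNA gene. The domain was second of 3495 in miRNA genes and second in snoRNA genes, and it held 4.89% of the 1228 miRNA genes placed on the genome and 61.9% of the 97 on chromosome 12.

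Its 60 miRNA genes were exceeded in 1 domain, with 72 in 750 kb, which lies on chromosome 2 and holds Sfmbt2, an imprinted gene with a large miRNA cluster in an intron. By density the order turned, at 10.4 miRNA genes per 100 kb in the 5-gene domain and 9.60 in the Sfmbt2 domain. The next domains held 19 and 13 miRNA genes, the first with Slitrk2 on the X chromosome and the second with Snrpn and Ube3a on chromosome 7. The Snrpn domain had the most snoRNA genes, 206. The domains named here beside the locus were picked by their counts.

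**Figure D4:**
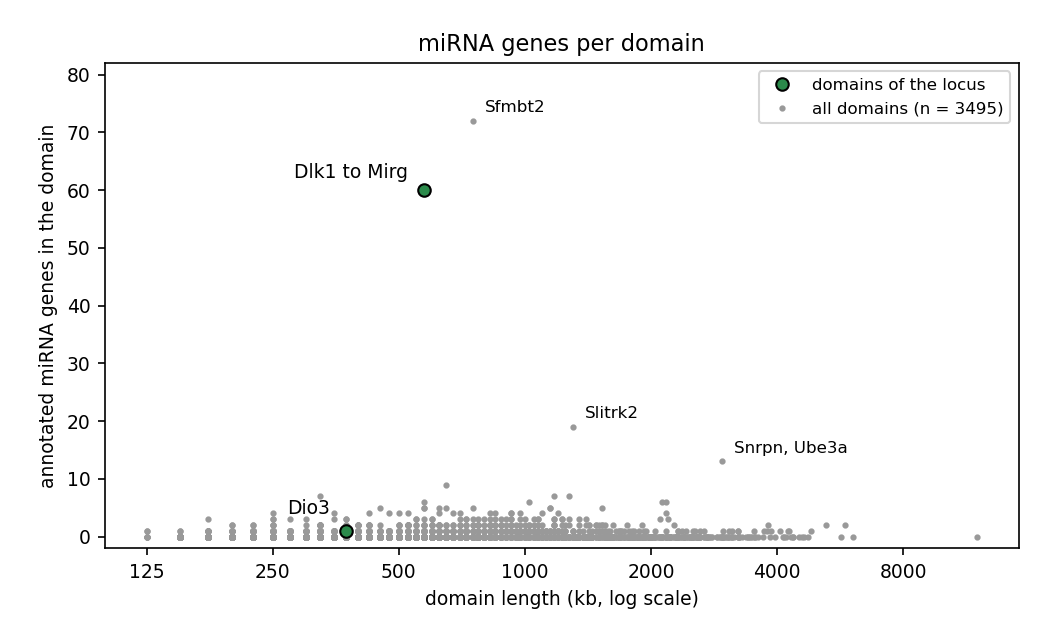
Number of annotated miRNA genes in a domain (y axis) by domain length (x axis, kb, log scale) for all 3495 domains (grey) and the 2 domains of the locus (green). The domain from Dlk1 to Mirg stands at 60 miRNA genes, below the Sfmbt2 domain at 72 and above the next at 19, and the Dio3 domain has 1.

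No miRNA or snoRNA gene lay between Dlk1 and Meg3. Within Meg3, before Rtl1, there were 2 miRNA genes, Mir1906-1 and Mir770. Over Rtl1 there were 15, from Mir673 to Mir136, within 23.4 kb. They include Mir431, Mir433, Mir127, Mir434 and Mir136, which are made from the strand opposite to Rtl1 and can cut its mRNA.

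In Rian beyond Rtl1 lay 11 snoRNA genes and, from Mir341 to Mir370, 3 miRNA genes. Between Rian and Mirg came 30 miRNA genes within 52.8 kb, from Mir882 to Mir485, and 8 snoRNA genes. In Mirg itself there were 10 miRNA genes, from Mir453 to Mir3072. The stretch from Mir379 to Mir410 is a well-known cluster, whose miRNAs are abundant in brain and placenta, and it held 38 miRNA genes in 34.7 kb. No miRNA or snoRNA gene lay between Mirg and the boundary.

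All 60 miRNA genes stood well inside the domain. Their distances to the nearest boundary ran from 144.5 kb for Mir1906-1 to 282.2 kb for Mir882, with a median of 239.7 kb, against 145.6 kb over all miRNA genes. The 19 snoRNA genes were 231.1 to 286.9 kb from a boundary, with a median of 256.3 kb, against 190.6 kb over all snoRNA genes. These genes are neighbours in 1 domain and are not separate observations.

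The mature sequences show how far the miRNAs of the 5-gene domain resemble one another, because a miRNA recognises its targets mainly through its seed, bases 2 to 8 from the 5′ end. RefSeq on GRCm38.p6 listed 112 mature miRNAs of these 60 genes, with 102 different seeds. A seed shared by 2 genes was found 10 times, over 16 of the 60 genes. Among them are Mir299a and Mir299b, which are not separate places, as Mir299b lies within Mir299a on the opposite strand. For some genes not every arm was listed, such as Mir539 with its 5p arm only and Mir485 with its 3p arm only. Shared seeds can thus have been missed. The miRNAs with a shared seed follow, 5′ to 3′, with the seed in capitals.
miR-370-5p: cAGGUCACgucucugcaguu
miR-1193-3p: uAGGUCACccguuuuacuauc
miR-379-3p: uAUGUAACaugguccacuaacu
miR-411-3p: uAUGUAACacgguccacuaacc
miR-299a-3p: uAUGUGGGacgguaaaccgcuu
miR-299b-3p: uAUGUGGGacgguaaacc
miR-3070-5p: aGCCCCUGaccuugaaccuggga
miR-379-5p: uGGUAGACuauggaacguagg
miR-1193-5p: uGGUAGACcggugacguaca
miR-3070-3p: uGGUGCUAccgucagggguaga
miR-3070-2-3p: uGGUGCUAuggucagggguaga
miR-758-5p: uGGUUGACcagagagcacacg
miR-1197-5p: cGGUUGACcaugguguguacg
miR-453: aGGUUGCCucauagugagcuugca
miR-496a-5p: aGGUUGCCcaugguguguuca
miR-494-5p: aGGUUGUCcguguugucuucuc
miR-410-5p: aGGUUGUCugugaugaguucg
miR-376c-5p: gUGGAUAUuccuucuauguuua
miR-376b-5p: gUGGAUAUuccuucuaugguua

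Mir3070a and Mir3070b shared the 5p sequence whole, which is why it stands once, and the names that follow one another otherwise form the pairs. miR-379 shared one seed with miR-411 through its 3p arm and another with miR-1193 through its 5p arm, so its arms fell into different seed groups.

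Other miRNAs of the cluster are printed as examples of its range along the domain, from Meg3 to Mirg, and from Dio3's domain, again with the seed in capitals. Where a gene has 2 mature arms, the 3p arm is shown, a choice made after the table had been seen.
miR-1906: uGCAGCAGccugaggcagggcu
miR-431-3p: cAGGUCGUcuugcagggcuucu
miR-433-3p: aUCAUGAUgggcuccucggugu
miR-127-3p: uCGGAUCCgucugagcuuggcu
miR-434-3p: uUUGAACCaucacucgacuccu
miR-136-3p: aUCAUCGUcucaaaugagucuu
miR-370-3p: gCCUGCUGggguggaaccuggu
miR-329-3p: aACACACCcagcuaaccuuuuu
miR-300-3p: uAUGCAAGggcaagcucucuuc
miR-381-3p: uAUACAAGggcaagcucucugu
miR-134-3p: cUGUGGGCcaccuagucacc
miR-154-3p: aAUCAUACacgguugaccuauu
miR-541-3p: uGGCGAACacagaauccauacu
miR-410-3p: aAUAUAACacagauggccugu
miR-1247-3p: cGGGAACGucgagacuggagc

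miR-127-3p, miR-431-3p, miR-433-3p, miR-434-3p and miR-136-3p come from the genes over Rtl1. miR-300-3p and miR-381-3p are alike along most of their length but differ in the seed, so they were not counted as a shared group. miR-1247-3p is the product of Mir1247, the 1 miRNA gene of the Dio3 domain. Of the hairpins of the 5-gene domain with a strand in the table, 54 were on the plus strand and 3 on the minus strand, those of Mir3544, Mir3071 and Mir299b. Of the seeds in the domain, 13 also occurred in miRNAs elsewhere in the genome, such as that of miR-329-3p, which miR-362-3p carries too, and that of miR-410-3p, which miR-344d-3p and miR-344e-3p carry.

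The Dio3 domain differed in content from its neighbour. It held 1 protein-coding gene, 9 lncRNA genes, 1 miRNA gene and no snoRNA gene among 13 annotated genes. The lncRNA genes were Gm34667, Gm40574, Gm34719, 3110009F21Rik, Gm34785, Gm40575, Gm34895, Gm40576 and Dio3os. Dio3os, the transcript opposite Dio3, was 96.9 kb from a boundary. Of the 3495 domains 240 had 9 lncRNA genes or more, where the median had 3.

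The 5-gene domain had 7 lncRNA genes. Beside Meg3, Rian and Mirg they were Gm34017, Gm34081 directly to the left of Meg3, 6430411K18Rik within the span of Rtl1, and Gm34554. Gm34554, at 27.5 kb from the boundary between Mirg and Dio3, was the gene of the domain nearest to that boundary among those named here.

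The starts of Dlk1, Meg3 and Dio3 were set against the boundaries too. The start of Dlk1 was 52.8 kb from a boundary, that of Meg3 141.0 kb and that of Dio3 95.8 kb. No start listed in the promoter table lay inside any of the 3 boundaries around the locus, but the table does not list every gene, and whether the end of Gm34667 in the boundary between Mirg and Dio3 is its start was not known. The promoter windows from RefSeq on GRCm38.p6, 250 bases before to 50 bases after the start on the plus strand, follow. Capitals mark CCCTC, part of the CTCF motif, TATAAA, the TATA box, and CCAAT, the CCAAT box, on either strand.
Dlk1, chr12:109452573-109452872: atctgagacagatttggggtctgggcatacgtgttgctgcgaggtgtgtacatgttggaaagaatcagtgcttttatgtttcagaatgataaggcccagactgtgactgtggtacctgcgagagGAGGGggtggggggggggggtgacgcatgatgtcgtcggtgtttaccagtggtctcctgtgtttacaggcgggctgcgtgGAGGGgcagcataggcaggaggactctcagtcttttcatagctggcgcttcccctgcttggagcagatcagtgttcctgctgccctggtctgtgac
Meg3, chr12:109540746-109541045: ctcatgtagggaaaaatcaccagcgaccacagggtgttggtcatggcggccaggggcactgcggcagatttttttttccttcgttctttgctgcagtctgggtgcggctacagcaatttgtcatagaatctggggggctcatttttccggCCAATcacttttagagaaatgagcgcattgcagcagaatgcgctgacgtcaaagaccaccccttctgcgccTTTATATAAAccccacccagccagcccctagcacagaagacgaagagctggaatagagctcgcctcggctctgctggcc
Dio3, chr12:110278980-110279279: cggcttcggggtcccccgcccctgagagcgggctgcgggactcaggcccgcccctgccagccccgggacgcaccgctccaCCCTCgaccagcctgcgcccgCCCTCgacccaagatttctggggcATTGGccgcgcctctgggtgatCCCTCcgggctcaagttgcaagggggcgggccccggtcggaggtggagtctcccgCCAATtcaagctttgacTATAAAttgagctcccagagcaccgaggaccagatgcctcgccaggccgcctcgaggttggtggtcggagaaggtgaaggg

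The Dio3 window held 3 matches to CCCTC, 1 to TATAAA and 2 to CCAAT. The Dlk1 window held 2 matches to CCCTC and none to the other motifs. The Meg3 window held 2 overlapping matches to TATAAA, 1 on each strand, and 1 to CCAAT. Of all 32851 promoter windows of the same 300 bases, 66.0% held CCCTC, 13.6% TATAAA and 37.4% CCAAT on either strand. CCCTC was thus frequent in promoter windows, CCAAT less so and TATAAA the least. The windows of the locus were not tested against these shares.

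CG dinucleotides, the targets of DNA methylation, numbered 25 in the Dio3 window, 13 in that of Meg3 and 9 in that of Dlk1. A second start of Meg3 had 1 CG in its window, the window of Rian had 0 and that of Mirg 10. The median window had 7, so the windows of the locus lay on both sides of it. Fewer CG than in the Dio3 window were found in 81.6% of all windows, fewer than in the first Meg3 window in 62.1% and fewer than in the Dlk1 window in 54.2%. The GC content was 69.0% for Dio3, 53.7% for Meg3 and 55.7% for Dlk1, against a median of 52.7%.

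The domains on either side of the locus gave the surroundings against which its own can be read. The domain to the left, of 475 kb, held Wdr25 and Begain, the latter coding for a synaptic protein, with 1 lncRNA gene and no miRNA gene. Begain was 132.2 kb from a boundary, and 384.2 kb without a protein-coding gene separated it from Dlk1. The domain to the right, of 450 kb, held 6 protein-coding genes and 5 lncRNA genes. Among the former were Mok, a protein kinase gene, 9.04 kb from a boundary, and Wdr20, 45.7 kb from one. Hsp90aa1, a heat shock protein gene, was 153.6 kb away and Dync1h1, the heavy chain of cytoplasmic dynein, 183.1 kb. The domains of the locus thus held 2 and 1 protein-coding genes, against 2 to the left and 6 to the right.

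The same values were taken for 3 other imprinted clusters. As background, 18.3% of all protein-coding genes and 10.3% of all lncRNA genes were near a boundary. The Dlk1-Meg3 locus had 1 boundary within its span of 828.6 kb and 0 of 6 genes near a boundary. The Igf2-H19 cluster, of 3 genes over 104.2 kb, had no boundary within its span and 0 of 3 genes near one. The Kcnq1-Cdkn1c cluster had 1 boundary within 396.3 kb and 3 of 5 genes near one, among them Kcnq1, a potassium channel gene at 0 kb, and Phlda2, a placental growth regulator at 1.54 kb. The Snrpn-Ube3a cluster had 1 boundary within 3191 kb and 2 of 5 genes near one, Ube3a, a ubiquitin ligase gene, at 3.75 kb and Mkrn3 at 4.85 kb.

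The median distance to a boundary was 152.9 kb at the Dlk1-Meg3 locus, against 33.2 kb at Igf2-H19, 1.54 kb at Kcnq1-Cdkn1c and 43.4 kb at Snrpn-Ube3a. Of all 3515 boundaries, 64.3% had a protein-coding end within 10 kb. Of those that bound the domains of a cluster, 0 of 3 did at Dlk1-Meg3, 1 of 2 at Igf2-H19, 3 of 3 at Kcnq1-Cdkn1c and 2 of 3 at Snrpn-Ube3a. Counts this small cannot be told from that share. With 4 clusters on 1 pooled list there is no test of these differences. Among the lncRNAs, Meg3 was 141.0 kb from a boundary, H19 121.9 kb and Kcnq1ot1, which silences genes of its cluster, 88.1 kb.

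**Figure D5:**
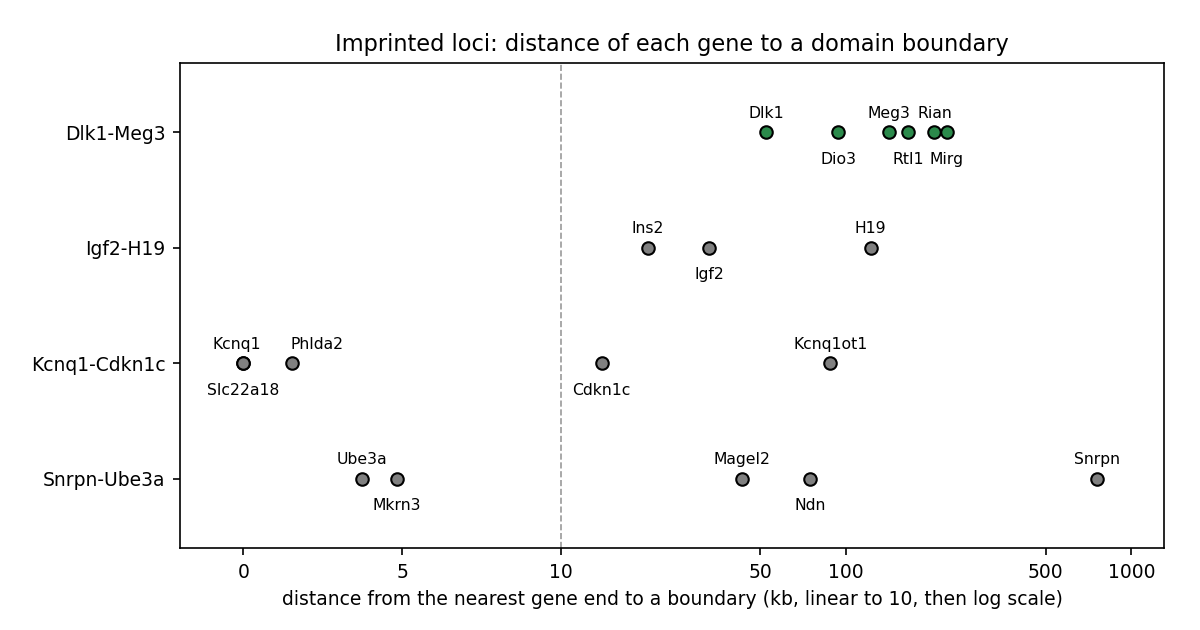
Distance from the nearest end of each gene to a boundary (x axis, kb, linear up to 10 and logarithmic above) for 4 imprinted clusters (rows), with Dlk1-Meg3 in green at the top. All 6 genes of Dlk1-Meg3 stand to the right of the dashed 10 kb line, as do those of Igf2-H19, while 3 genes of Kcnq1-Cdkn1c and 2 of Snrpn-Ube3a stand to its left.

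Genes related to the members by pathway, family or imprinting were also placed on the list, in 6 groups. The background was the 18.3% of all protein-coding genes near a boundary. Of 45 imprinted genes of other clusters 13 were near a boundary, or 28.9% (95% Wilson interval of 17.7 to 43.4%, for counting error only), with a median distance of 20.3 kb. They included Kcnk9, a potassium channel gene, at 0 kb, Impact at 7.05 kb, Igf2r, a receptor that clears IGF2, at 7.41 kb and Blcap at 8.64 kb. By gene midpoint in place of gene ends the share was 15.6%, against 11.2% of all protein-coding genes. Genes of 1 cluster are neighbours and count more than once toward such a share. The group also holds lncRNA genes, such as H19 and Kcnq1ot1, and of all lncRNA genes 10.3% were near a boundary. A background of protein-coding genes alone is therefore not that of the whole group.

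Among genes that keep or read imprints, 7 of 24 were near a boundary, or 29.2%, and 16.7% were by midpoint, against 11.2% of all protein-coding genes. Aff3, whose product is known to bind at imprinted control regions, was at 0.393 kb, and Dnmt3b, a DNA methyltransferase gene, Hells and Atrx were at 0 kb. Zfp57 and Zfp445, which encode zinc finger proteins that guard imprints, were 201.2 and 213 kb away, Trim28, their cofactor, 18.97 kb and Ctcf 311.5 kb.

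Of 15 genes of miRNA biogenesis 5 were near a boundary, or 33.3%, but by gene midpoint the share was 6.67%, below the 11.2% of all protein-coding genes. Drosha and Dgcr8, the nuclear processing complex, were at 0 kb, Lin28b, a blocker of let-7 maturation, at 1.62 kb and Prkra at 1.78 kb. The Wilson interval of that share ran from 15.2 to 58.3%. The intervals of all 6 groups included the 18.3% of all protein-coding genes. For the imprinted genes of other clusters, whose interval began at 17.7%, that share is not the background of the whole group, as it includes lncRNA genes. Genes of a cluster are also neighbours, so the interval cannot tell whether this group differs from its background.

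Of 30 Notch and Delta-like genes 6 were near a boundary, or 20.0%, close to the background, and by midpoint 6.67% were, below the 11.2% of all protein-coding genes. Notch2 and Hey2 were at 0 kb, as was Adam17, a protease gene, and Dner was at 3.78 kb. Dlk1, at 52.5 kb, was nearer to a boundary than its relative Dlk2 at 122.3 kb, the ligand gene Dll1 at 123.1 kb and the receptor gene Notch1 at 96.2 kb.

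Of 14 genes of thyroid hormone handling 3 were near a boundary, or 21.4%, namely Iyd and Tg at 0 kb and Secisbp2 at 1.68 kb. By midpoint the share was 7.14%, again below the 11.2% of all protein-coding genes. Dio3 was 93.9 kb from a boundary in its domain of 375 kb. Of the other deiodinase genes, Dio1 was 91.5 kb away in a domain of 200.0 kb and Dio2 586.0 kb away in a domain of 1850.0 kb. Of 17 gag-derived genes 2 were near a boundary, or 11.8%, Zcchc12 at 0.837 kb and Rtl9 at 5.33 kb, against 18.3% of all protein-coding genes. By midpoint the share of gag-derived genes was also 11.8%, close to the 11.2% of all protein-coding genes. Rtl1 was 164.9 kb from a boundary and Peg10, another imprinted gag-derived gene of the placenta, 147.3 kb.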

How the data were processed

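The submitters' processing notes name BWA 0.7.17, Juicer 1.22.01 and the build mm10 for the Micro-C data. The deposited list gives chromosome, start and end of 3515 boundaries from pooled DMSO-treated ESC libraries. How boundaries were called, and at which threshold, is not given in the sources used here. The list has no value per library, so no spread or p-value could be computed.

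Positions were counted from 1. A domain was the stretch between neighbouring boundaries (3495 in all). Genes came from RefSeq on GRCm38.p6, which is mm10. Of these, 345 genes placed by scaffold positions were left out. The annotation has no strand, so the distance of a gene was that of its nearer end, and 0 kb meant an overlap of that end with a boundary. Pairs were compared by midpoints. The code recovered the known distances and domains of genes planted on the boundary list. Its pair counts matched a direct count over a random sample of the annotated genes. Wilson intervals cover counting error only. The members, lists and named genes, which comprise the locus, its neighbours and up to 4 near genes per list in alphabetical order plus related genes, were chosen with earlier results of these data known. Alternatives were the window, the gene midpoint, the start site, chromosome 12 as background, and pairs of all annotated genes, the last chosen after seeing the data. Tools were Python 3.11.15, pandas 2.3.3 and numpy 2.4.6.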

Additional observations from a re-analysis of the deposited data

How the results depend on the processing

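None of the 6 genes came near a boundary with no window, with one of 50 kb or by its midpoint. Of all protein-coding genes 11.7%, 35.6% and 11.2% did, and the lncRNA shares at these settings are not given here. Dlk1, at 52.5 kb, missed the 50 kb window by less than the 25 kb width of a boundary, so the count at 50 kb depends on the cutoff. Of 58 recomputed values 47 stayed within the spread allowed for them and 11 moved. Rian was 233 kb from a boundary by its midpoint, against 204 kb by its nearer end. Against chromosome 12 alone, 31.2% of domains were shorter than the Dio3 domain, against 32.8% over all chromosomes. Counting gene midpoints, 6.67% of Notch genes (20.0% by ends), 7.14% of thyroid hormone genes (21.4%), 6.67% of miRNA biogenesis genes (33.3%) and 15.6% of other imprinted genes (28.9%) were near a boundary, against 11.2% of all protein-coding genes. The first 3 of these lists thus turned from above the share of all protein-coding genes to below it. With no window the share was 0% for gag-derived genes (11.8%) and 13.3% for other imprinted genes, against 11.7% of all protein-coding genes. Within 50 kb it was 50.0% for imprint maintenance genes (29.2%) and 60.0% for other imprinted genes, against 35.6% of all protein-coding genes. Among pairs of all annotated genes as far apart as Dlk1 and Dio3, 15.7% shared a domain. No paired analysis was possible because the list pools the libraries and the result comes from no test. For the same reason no library could be left out, and a stricter threshold for boundaries could not be run without scores. The contact depth is unknown, boundaries are placed to 25 kb, and a boundary present on 1 parental chromosome cannot be told from one on both.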

Other observations

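The miRNA genes of the Dlk1 domain shared seeds less widely than those of the other domains rich in miRNA genes for which mature sequences were listed. In the Dlk1 domain 16 of 60 genes had a seed in common with another gene of the domain, and no seed occurred in more than 2 genes. The 16 include Mir299a and Mir299b, which overlap on opposite strands. In the Slitrk2 domain 11 of 19 genes did, with up to 5 genes per seed, and in the Snrpn domain 11 of 13 did, with up to 7 genes per seed. The Sfmbt2 domain was not compared. Copies within a cluster are related by descent, so these are counts without a test. Seeds of arms that were not listed were not counted.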
